A study of Sus scrofa with 12 samples.

Results

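The genes described here were higher in IPEC-J2 cells after 24 h of deoxyshikonin and lay close to their controls after 6 h. They were chosen from the expression values themselves. A gene was a member if it carried an Ensembl pig identifier and averaged 1 TPM or more across the 12 libraries. Its treated mean at 24 h had to exceed the control mean by at least 1 on the log2(TPM + 1) scale, and its difference at 6 h had to lie between -0.5 and 0.5. TPM is the abundance of a gene per unit of its length, scaled to 1 common total in every library. The rule found 83 of the 32518 identifiers in the table, or 83 of the 11366 Ensembl identifiers that passed the abundance filter. A gene symbol could be paired with 48 members, and 35 are known here by identifier only.

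IPEC-J2 is an established, non-transformed epithelial cell line from pig small intestine. Deoxyshikonin is a naphthoquinone of plant roots related to shikonin. The 4 groups of 3 libraries each were untreated cells at 6 h, cells with deoxyshikonin at 6 h, untreated cells at 24 h and cells with deoxyshikonin at 24 h, at a dose of 5 µmol/L. All groups are the same cell line, no vehicle is named for the untreated cells, and nothing in the labels says whether the libraries of a group came from separate cultures. The p-values therefore measure only the spread between these libraries, which may be technical.

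As background, transcripts that respond to a compound can be sorted by time. Early genes are switched on by factors already present in the cell, whereas late genes often need newly made proteins or follow from a change in the state of the cells. Among the systems whose genes appear below, plasminogen activators set how much plasmin is made at the cell surface, and actin regulators shape the cytoskeleton. Lysosomal hydrolases break down material taken up or turned over by the cell.

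TPM carries no sequencing depth, so the depth behind each value is unknown. Of 7 epithelial markers, 6 had an identifier, and their summed level was 5869 to 6040 TPM in treated cells and 5694 to 5951 TPM in controls at 24 h. At 6 h it was 3990 to 4203 TPM in treated cells and 5313 to 5470 TPM in controls, without overlap. The markers did not move alike at 6 h. KRT8 had means of 2166 TPM in controls and 1193 TPM in treated cells, and KRT18 1693 and 816 TPM. EPCAM and VIL1 were lower in treated cells too. CLDN4 was higher in treated cells, with 646 TPM in controls and 1302 TPM in treated cells, as was CDH1, with 528 and 581 TPM. VIL1, the microvillus protein villin, was low at 0.43 to 3.60 TPM. Nor did the markers move alike at 24 h. KRT8 then had means of 2242 TPM in controls and 1927 TPM in treated cells. The means of CLDN4 were 1120 and 1367 TPM, and those of VIL1 1.51 and 3.06 TPM. CDH1, EPCAM and KRT18 also had higher means in treated cells. Of 5 leukocyte markers, PTPRC and CSF1R stayed at or below 0.05 TPM and CD3E at or below 0.13 TPM. Their summed level was nevertheless 7.12 to 9.38 TPM in treated cells at 24 h against 1.47 to 2.10 TPM in controls, through CD14 and CD68, and 7.65 to 9.47 against 1.23 to 1.78 TPM at 6 h. The 6 fibroblast markers summed to 3.11 to 3.75 TPM in treated cells at 24 h and to 7.48 to 8.26 TPM in their controls. At 6 h they summed to 5.81 to 6.82 TPM in treated cells and 9.16 to 9.73 TPM in controls. Of 4 endothelial markers 3 had an identifier, and PECAM1 made up nearly all of their sum of 11.1 to 17.2 TPM in treated cells and 9.45 to 13.9 TPM in controls at 24 h. At 6 h their sum was 20.3 to 25.0 TPM in treated cells and 10.8 to 15.6 TPM in controls, without overlap. The part of these markers in the results was not tested. In bulk libraries, fewer cells of a type and less RNA per cell cannot be told apart. The third control library at 24 h stood apart for the most abundant members, which are given below with and without it.

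**Figure D1:**
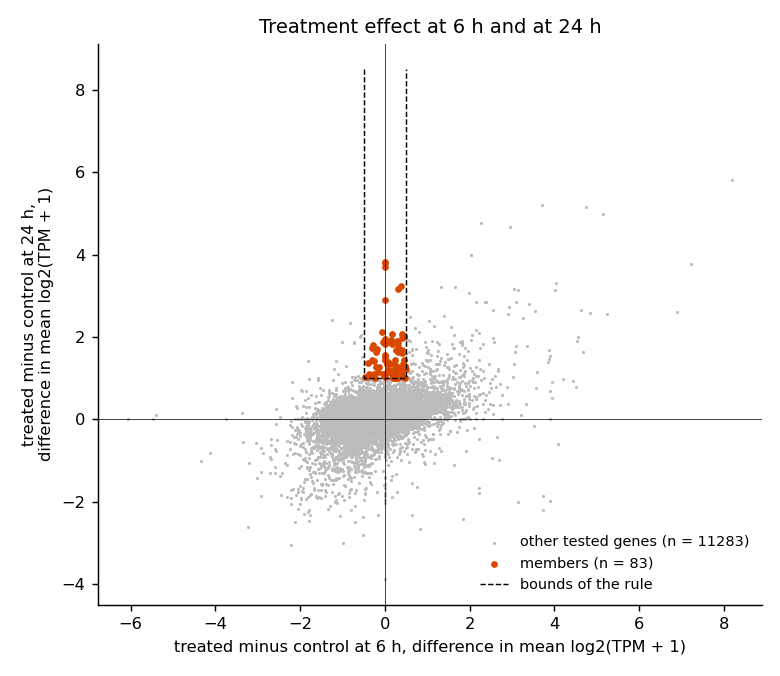
Difference between treated and control means of log2(TPM + 1) at 6 h (horizontal axis) and at 24 h (vertical axis) for the 11366 Ensembl genes that averaged 1 TPM or more. The 83 members (orange) fill the region bounded by the dashed lines by construction, and 4 of the 11 members above 2 were listed at 0 in all 9 libraries other than treated 24 h.

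The 24 h differences of the members ran from 1.00 to 3.82 on the log2 scale, with a median of 1.35. Differences of 2 or more were found in 11 members and differences from 1.5 to 2 in another 23. These values chose the members and are a description. With limma and Benjamini-Hochberg adjustment, 67 members had an adjusted p under 0.05 for a rise at 24 h, where 32.2% of all 11897 tested genes had one. All 3 treated libraries exceeded all 3 controls at 24 h in 67 members as well, against 35.4% of all tested genes, and 63 members met both. Nothing is read from these counts, since the rule used the same contrast.

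The members just inside the limit at 24 h were SNORA74 (ENSSSCG00000018891), ENSSSCG00000039030 and ACHE (ENSSSCG00000030303), all at 1.00. Just outside lay KLK5 (ENSSSCG00000034792), a secreted serine protease, at 0.995, FAM78B (ENSSSCG00000006321) at 0.994 and RPP21 (ENSSSCG00000021130) at 0.992. At the 6 h limit, NXPE3 was inside at 0.495, and DNASE2, an acid nuclease of lysosomes, was outside at 0.501. At the lower 6 h limit, CFL2 was inside at -0.467 and ENSSSCG00000033210 outside at -0.529.

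The members were not abundant as a group. Their median of mean TPM was 5.22 against 15.9 over all tested genes, and 40 members lay between 1 and 5 TPM. A total of 23 members passed the abundance filter only through the treated 24 h libraries, since their mean over the other 9 libraries was under 1 TPM. Such genes had to differ at 24 h to be present at all. Those with a symbol are NGFR, ARG1, RSAD2, RAB17, EPHA10, ADAMTS1, ACHE, RASSF4, SYT3, NECTIN1 and SNORA21. ENSSSCG00000042659 and ENSSSCG00000039927 are among those without one. The other 60 would have passed without the treated 24 h libraries.

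A group of members belongs to plasminogen activation and coagulation. It was assembled by textbook role after the members were known, as were all role groups below, and carries no test. PLAT (ENSSSCG00000007032) encodes tissue plasminogen activator, the protease that turns plasminogen into plasmin. At 24 h its TPM was 4.58, 3.60 and 3.39 in the control libraries and 18.92, 19.85 and 21.33 in the treated libraries. At 6 h it was 7.72, 7.11 and 6.74 in controls and 7.14, 6.55 and 6.54 in treated cells. The treated libraries at 24 h were thus the highest of all 12 and the controls at 24 h the lowest, with overlap of the groups at 6 h. The log2 difference was 2.12 (SE 0.09) at 24 h and -0.08 (SE 0.09) at 6 h.

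PROCR encodes the protein C receptor, which speeds activation of that anticoagulant. Treated libraries had 3.68, 3.67 and 4.71 TPM at 24 h, and all 3 controls lay below them, the lowest at 0.86 TPM. TFPI2 encodes a Kunitz-type inhibitor of plasmin and related proteases. It had 0.82, 1.06 and 0.56 TPM at 24 h in controls and 2.38, 3.08 and 2.51 TPM in treated libraries. Neither gene overlapped between the groups at 24 h, and both are of low abundance. At 6 h PROCR had a mean of 1.87 ± 0.488 TPM (SD, n = 3) in controls and 2.53 ± 1.01 TPM (SD, n = 3) in treated cells. TFPI2 had means of 1.48 ± 0.276 and 1.93 ± 0.0764 TPM (SD, n = 3) at 6 h.

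Of the 24 genes on a fixed list of extracellular matrix and wound response, 19 were tested. At 24 h, 5 of the 19 rose and 7 fell (limma adjusted p under 0.05), with a median log2 difference of -0.11 against 0.09 over all tested genes, where 32.2% rose and 18.1% fell. With median-of-ratios rescaling or quantile normalization 5 rose and 10 or 9 fell, without shares over all tested genes for these scalings. PLAU, the urokinase-type activator, was at 1659 ± 65.7 TPM in controls, against 1519 ± 62.2 TPM in treated cells at 24 h (SD, n = 3), a difference of -0.13 (limma adjusted p = 0.0226). Its receptor PLAUR fell by 0.21 at 24 h (limma adjusted p = 0.0012) after a rise of 0.93 at 6 h (limma adjusted p = 3.58e-09). SERPINE2, a secreted inhibitor of serine proteases, rose by 0.75 at 6 h and by 0.74 at 24 h (limma adjusted p = 7.91e-08 and 4.75e-07).

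Another role group holds proteins of the actin cytoskeleton. RHOB encodes a small GTPase of endosomes and actin fibres. Its TPM at 24 h was 32.31, 28.53 and 27.24 in controls and 61.84, 63.64 and 65.21 in treated libraries, and at 6 h its groups overlapped between 29.56 and 37.96. SMTN encodes smoothelin, an actin-binding protein of contractile cells. It had 26.08, 23.80 and 21.96 TPM in controls, against 49.67, 54.15 and 50.45 TPM in treated libraries at 24 h. At 6 h it lay between 40.19 and 43.48 TPM in all 6 libraries. The 24 h controls were below and the treated 24 h libraries above all of these, with differences over time of -0.79 (SE 0.06) in controls and 0.31 (SE 0.06) in treated cells.

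CFL2 encodes cofilin 2, which severs actin filaments. Controls at 24 h had 29.53, 29.96 and 28.93 TPM and treated libraries 53.48, 65.03 and 67.02 TPM. At 6 h the order was the opposite, with 31.11, 33.54 and 31.86 TPM in controls, against 21.92, 23.01 and 24.09 TPM in treated libraries. CORO2A, a coronin that binds actin, rose from a mean of 1.94 ± 0.645 TPM to 5.24 ± 0.221 TPM (SD, n = 3) at 24 h. All 4 members of this group had log2 differences at 24 h of 1.04 to 1.11. None overlapped at 24 h, the contrast of the rule, where 35.4% of all tested genes lay apart with treated cells higher. CFL2 alone among them also passed the test at 6 h, with a difference of -0.47 (SE 0.08).

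Receptors and adhesion proteins form a further group. ITGB3 encodes the integrin beta-3 chain, which binds vitronectin and other matrix proteins. It was the most abundant of the 4, with 73.44, 73.49 and 62.63 TPM in controls, against 133.95, 147.44 and 149.57 TPM in treated libraries at 24 h. The 6 h values were 87.83, 88.53 and 85.91 TPM in controls, against 75.33, 69.58 and 75.78 TPM in treated libraries. The groups were thus apart in the other direction. The log2 difference of ITGB3 at 6 h was -0.25 (SE 0.07), close to the median of -0.20 over all tested genes. NGFR (ENSSSCG00000017548) encodes the p75 neurotrophin receptor. Its TPM at 24 h was 0.23, 0.11 and 0.26 in controls and 3.13, 3.98 and 4.54 in treated libraries. The 6 h values were 0.23, 0.17 and 0.16 TPM in controls, against 0.60, 0.91 and 0.41 in treated libraries, without overlap. EPHA10, an ephrin receptor, was at 0.583 ± 0.0929 TPM in controls, against 2.61 ± 0.243 TPM in treated cells at 24 h (SD, n = 3). NECTIN1, a junctional adhesion protein, owed its place to a single library: it had 0.98, 0.90 and 13.25 TPM in treated cells at 24 h and 0.79, 0.77 and 0.98 TPM in controls.

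**Figure D2:**
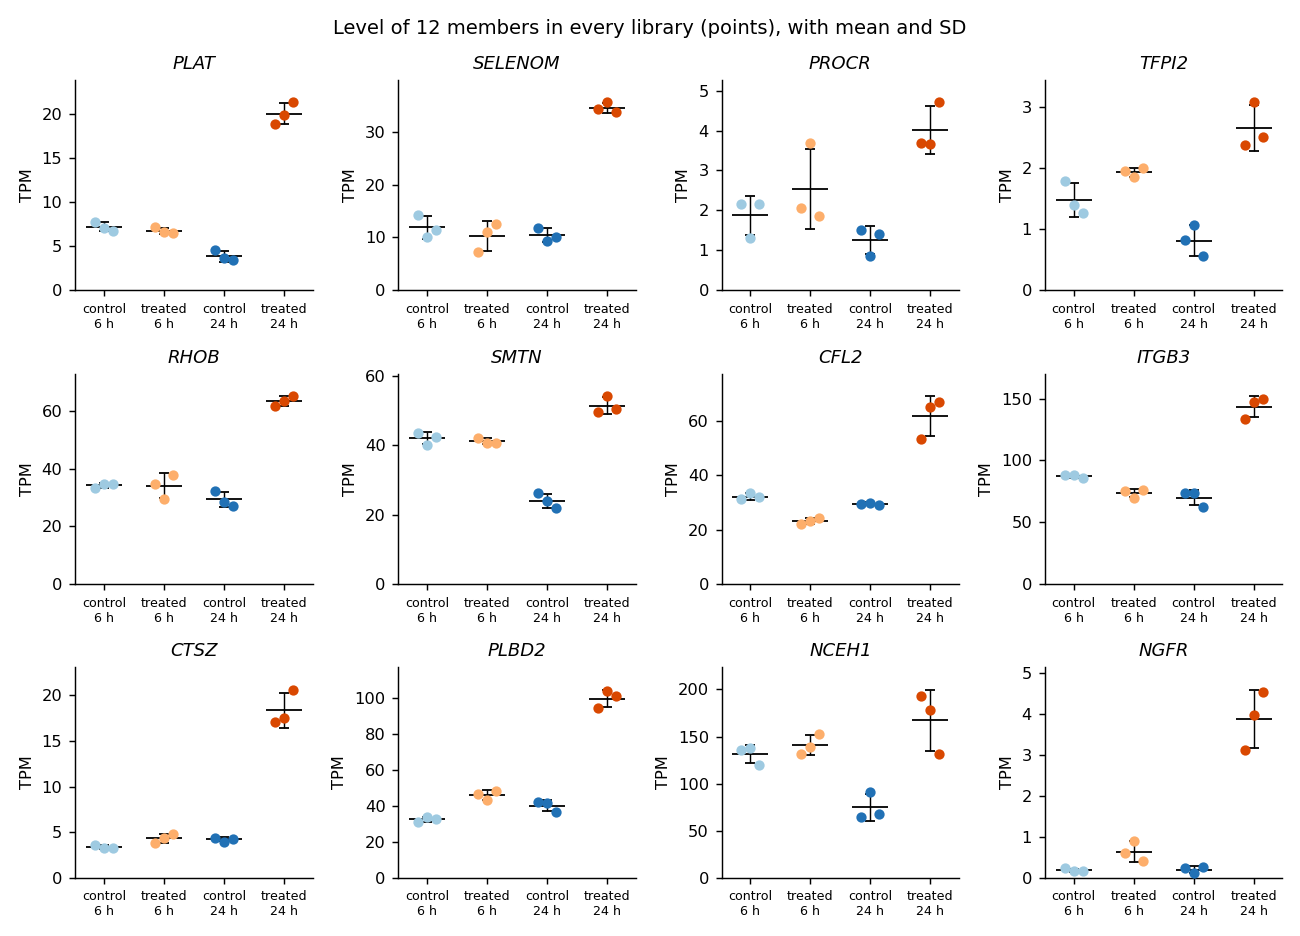
TPM of 12 members in each library, 3 points per group, with the mean (horizontal line) and SD (bars) and a vertical axis from 0 in each panel. In all 12 the treated 24 h libraries lie above the control 24 h libraries, and controls at 24 h lie below those at 6 h in several panels, SMTN and NCEH1 among them.

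The group of lysosomal and metabolic enzymes has 7 members. None overlapped between the groups at 24 h, where 35.4% of all tested genes lay apart with treated cells higher. The rule used the same contrast, so nothing is read from this count. CTSZ encodes cathepsin Z, a lysosomal carboxypeptidase. Controls at 24 h had 4.38, 3.97 and 4.26 TPM and treated libraries 17.09, 17.47 and 20.61 TPM. The 6 h values were 3.63, 3.30 and 3.27 TPM in controls, against 3.83, 4.33 and 4.83 in treated libraries, which did not overlap either. The log2 difference was 1.89 (SE 0.09) at 24 h and 0.27 (SE 0.09) at 6 h.

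PLBD2, a phospholipase-like protein of lysosomes, had 41.95, 41.53 and 36.37 TPM in controls, against 94.16, 103.62 and 100.75 TPM in treated libraries at 24 h. It was close to the 6 h limit, with means of 32.5 ± 1.42 and 46.0 ± 2.63 TPM (SD, n = 3). NCEH1 (ENSSSCG00000011755) encodes a hydrolase of cholesterol esters and had 64.70, 91.45 and 67.89 TPM in controls, against 192.63, 178.25 and 130.92 TPM in treated libraries at 24 h. At 6 h NCEH1 lay between 120.00 and 152.69 TPM in all 6 libraries. FAH, the last enzyme of tyrosine breakdown, was at 3.40 ± 0.36 TPM in controls, against 10.9 ± 0.662 TPM in treated cells at 24 h (SD, n = 3). GALM, which interconverts the anomers of galactose, was at 13.1 ± 1.29 and 29.3 ± 2.13 TPM (SD, n = 3), with 13.2 ± 1.42 and 12.6 ± 0.235 TPM (SD, n = 3) at 6 h.

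ARG1 encodes arginase 1, which splits arginine into ornithine and urea. It had 0.12, 0.15 and 0.07 TPM in controls, against 2.76, 3.43 and 4.04 TPM in treated libraries at 24 h. At 6 h the values were 0.18, 0.04 and 0.16 TPM in controls, against 0.58, 0.57 and 0.30 TPM in treated libraries. ACHE, acetylcholinesterase, was at 0.753 ± 0.102 and 2.51 ± 0.0757 TPM (SD, n = 3) at 24 h. On a fixed list of 19 lysosome and autophagy genes, 18 were tested and 0 were members. Of these 18, 14 rose and 2 fell at 24 h, against 32.2% and 18.1% of all tested genes (limma adjusted p under 0.05). At 6 h 11 rose and 2 fell, against 26.6% and 48.7% of all. The median log2 differences were 0.44 at 24 h and 0.56 at 6 h, against 0.09 and -0.20 over all tested genes.

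The redox proteins among the members were SOD3, SELENOM and PRXL2A. SOD3, the extracellular superoxide dismutase, had 0.52, 0.67 and 0.72 TPM in controls, against 2.47, 3.19 and 3.97 TPM in treated libraries at 24 h. SELENOM, a selenoprotein of the endoplasmic reticulum, had 11.85, 9.25 and 10.06 TPM in controls, against 34.33, 35.67 and 33.73 TPM in treated libraries. PRXL2A, a peroxiredoxin-like protein, had 7.14, 9.61 and 10.03 TPM in controls, against 20.46, 21.42 and 27.57 TPM in treated libraries. All 3 were without overlap at 24 h, the contrast of the rule, as were 35.4% of all tested genes with treated cells higher. None of the 3 passed the test at 6 h. On a fixed list of NRF2 response genes, 21 of 23 were tested and 0 were members. At 6 h 17 of these 21 rose and 2 fell, with a median log2 difference of 1.62, where 26.6% of all tested genes rose and 48.7% fell (limma adjusted p under 0.05). At 24 h 17 rose and 4 fell, with a median of 0.90, where 32.2% of all rose and 18.1% fell. The medians over all tested genes were -0.20 at 6 h and 0.09 at 24 h.

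The secreted proteins of other kinds were SRGN (ENSSSCG00000023374), ADAMTS1 and PAPPA2. ADAMTS1, a metalloproteinase that cleaves proteoglycans, had 0.97, 1.17 and 0.87 TPM in controls, against 6.88, 4.24 and 4.52 TPM in treated libraries at 24 h. SRGN, the proteoglycan serglycin, varied widely, with 0.37, 3.41 and 3.07 TPM in controls, against 5.39, 14.06 and 18.32 TPM in treated libraries at 24 h. PAPPA2, a protease of growth factor binding proteins, overlapped between the groups, with 22.36, 17.54 and 6.53 TPM in controls, against 16.36, 55.37 and 38.06 TPM in treated libraries. Of these 3, only ADAMTS1 passed the test at 24 h, as did 32.2% of all tested genes with treated cells higher. ADAMTS1 met the abundance filter only through the treated 24 h libraries, with a mean of 0.944 TPM over the other 9. The rule used the same contrast, so nothing is read from this call.

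RSAD2 (ENSSSCG00000008648) encodes viperin, an antiviral protein induced by interferon and found on a fixed list of interferon response genes. Its TPM at 24 h was 0.26, 0.52 and 0.74 in controls and 4.18, 1.09 and 4.85 in treated libraries. At 6 h it was 0.33, 0.22 and 0.41 in controls and 0.24, 0.03 and 0.03 in treated libraries. The 24 h groups did not overlap, but the level was low and the treated libraries differed among themselves. Of 23 genes on the interferon response list 13 were tested, and 10 rose and 0 fell at 24 h (limma adjusted p under 0.05), against 32.2% and 18.1% of all tested genes, with a median log2 difference of 0.70. At 6 h 6 rose and 1 fell, against 26.6% and 48.7% of all tested genes. MX1 and ISG15, interferon-induced antiviral proteins, rose at both times, MX1 by 2.56 and 1.98 and ISG15 by 1.46 and 1.28 on the log2 scale. IFIT1, another such protein, had a difference of 0.80 (SE 0.44, limma adjusted p = 0.119) at 6 h and rose by 2.13 (SE 0.44, limma adjusted p = 0.00208) at 24 h.

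A total of 20 members with a symbol belonged to none of these roles, with log2 differences of 1.00 to 3.18 at 24 h. Of these, 18 did not overlap at 24 h, against 35.4% of all tested genes with treated cells higher. The rule used the same contrast, so nothing is read from this count. C4BPA encodes the alpha chain of C4b-binding protein, an inhibitor of complement. It had 1.04, 1.33 and 0.87 TPM in controls, against 6.25, 6.49 and 6.74 TPM in treated libraries at 24 h. PLEKHO1, a pleckstrin homology domain protein, had 7.04, 8.14 and 7.50 TPM in controls, against 23.41, 25.82 and 28.88 TPM in treated libraries. NCCRP1 had 21.96, 22.88 and 23.27 TPM in controls, against 48.85, 61.53 and 73.47 TPM in treated libraries.

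DACH1 (ENSSSCG00000009457), a transcription factor, had 3.24, 0.02 and 0 TPM in controls, against 19.27, 10.15 and 13.20 TPM in treated libraries at 24 h, and 1 library of each 6 h group stood far above its fellows (3.50 and 7.18 TPM). RAB17, a GTPase of epithelial vesicle traffic, was at 1.20 ± 0.122 and 3.60 ± 1.14 TPM (SD, n = 3) at 24 h, and at 0.56 ± 0.154 and 0.153 ± 0.0569 TPM (SD, n = 3) at 6 h. SLC25A27, a mitochondrial carrier, was at 11.9 ± 1.8 and 28.7 ± 3.86 TPM (SD, n = 3) at 24 h. SGCA, SERINC5, IQSEC3, RASSF4, SYT3, NXPE3, RBM20, ST6GAL2, RNF39 (ENSSSCG00000025208) and FAM131C (ENSSSCG00000003470) were among the others of this set without overlap, and RXFP2 and IL1RAPL2 overlapped.

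Of the 83 members, 19 passed the test at 6 h although they lay within 0.5 of their controls, and all 19 passed it at 24 h too. Treated cells were higher in 13 of them and lower in 6, where 26.6% and 48.7% of all tested genes were higher and lower. The 6 h groups did not overlap in 17 members with treated cells higher and in 6 with treated cells lower, against 28.6% and 50.6% of all tested genes. Those that passed the 6 h test with treated cells higher include CTSZ, PLBD2, PLEKHO1, C4BPA, ARG1, NGFR, ADAMTS1, IQSEC3 and NXPE3. Those that passed it with treated cells lower are CFL2, ITGB3, FAH, NCCRP1, RAB17 and ENSSSCG00000007135. The name "induced only at 24 h" thus goes against the data for the 13 members that were already higher at 6 h. The median 6 h difference over all tested genes was -0.202 as deposited, -0.067 after median-of-ratios rescaling and -0.048 after quantile normalization. After median-of-ratios rescaling the members called at 6 h were 19 higher and 3 lower, and after quantile normalization 20 and 3. The shares of all tested genes given above belong to the deposited scaling, and those after rescaling are not given here.

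The window at 6 h also depends on the pseudocount for members of low abundance. NGFR had a mean of 0.187 TPM in controls, against 0.64 TPM in treated cells at 6 h, a ratio of 3.43, and a log2(TPM + 1) difference of only 0.46. ARG1 had a ratio of 3.82 at 6 h and a difference of 0.39. With a pseudocount of 0.1 in place of 1, the 6 h differences became 1.32 for NGFR, 1.39 for ARG1, -1.20 for RSAD2 and -1.38 for RAB17. With that pseudocount 16 of the 83 members lay outside the rule, 13 of them above 0.5 at 6 h and 3 below -0.5. After median-of-ratios rescaling of the libraries 22 members lay outside it, 11 of them above 0.5 at 6 h and 13 under 1 at 24 h. These 22 include SMTN, CFL2, ITGB3, TFPI2, NGFR, PLBD2, ACHE, RAB17, NXPE3, IQSEC3, FAM131C, NECTIN1, ST6GAL2, SNORA74, SCARNA12, ENSSSCG00000032330 and ENSSSCG00000044834.

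A gap between treated and control cells that opens between 6 h and 24 h can come from a rise in treated cells, a fall in controls, or both. The treated libraries at 24 h were higher than those at 6 h for 60 members (limma adjusted p under 0.05), against 46.8% of all tested genes, and lower for 0, against 28.2%. Among controls 17 members fell from 6 h to 24 h and 8 rose, against 34.2% and 22.2% of all tested genes. Median-of-ratios rescaling gave 12 that fell and 8 that rose, and quantile normalization 18 and 7, without shares over all tested genes. These comparisons share their libraries with the rule and are not independent of it. Without a test, 20 members (24.1%) had a control difference over time of -0.5 or less, as had 13.1% of all tested genes.

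The change over time took several forms. In 51 members the treated mean at 24 h was above that at 6 h by at least 1 on the log2 scale, in 21 by 0.5 to 1, and in 8 by 0 to 0.5. In the other 3 it was below, with differences of -0.04 in ENSSSCG00000003080, -0.95 in SNORA74 and -2.37 in ENSSSCG00000018172. In 13 members the downward difference between control times was larger than the upward one between treated times, among them SMTN, NCEH1, TFPI2 and PLEKHO1. For NCEH1 the treated groups differed by 0.23 (SE 0.15) and the control groups by -0.82 (SE 0.15). ENSSSCG00000003080 had 5.78, 5.64 and 6.34 TPM in treated cells at 6 h and 6.16, 5.39 and 5.59 TPM at 24 h, a difference of -0.04 (SE 0.11). Its controls had 3.72, 4.29 and 5.14 TPM at 6 h and 2.14, 2.02 and 1.54 TPM at 24 h. Treated cells of this member thus stayed between 5.39 and 6.34 TPM, and controls were lower at 24 h than at 6 h (limma adjusted p under 0.05).

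Controls of 4 members were higher at 24 h than at 6 h by at least 0.5. FAM131C had 2.08, 1.43 and 1.99 TPM in controls at 6 h and 4.50, 5.34 and 4.68 TPM at 24 h, and treated cells at 24 h had 10.27, 10.00 and 11.88 TPM. RNF39, a RING finger protein, had 12.94, 10.63 and 9.16 TPM in controls at 6 h, 21.67, 20.15 and 19.30 TPM in controls at 24 h and 42.07, 51.20 and 60.28 TPM in treated cells at 24 h. ENSSSCG00000049534 had the largest control rise, 1.16 (SE 0.34), on values of 0.28 to 6.33 TPM. In these genes both cultures moved the same way, and treated cells further.

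**Figure D3:**
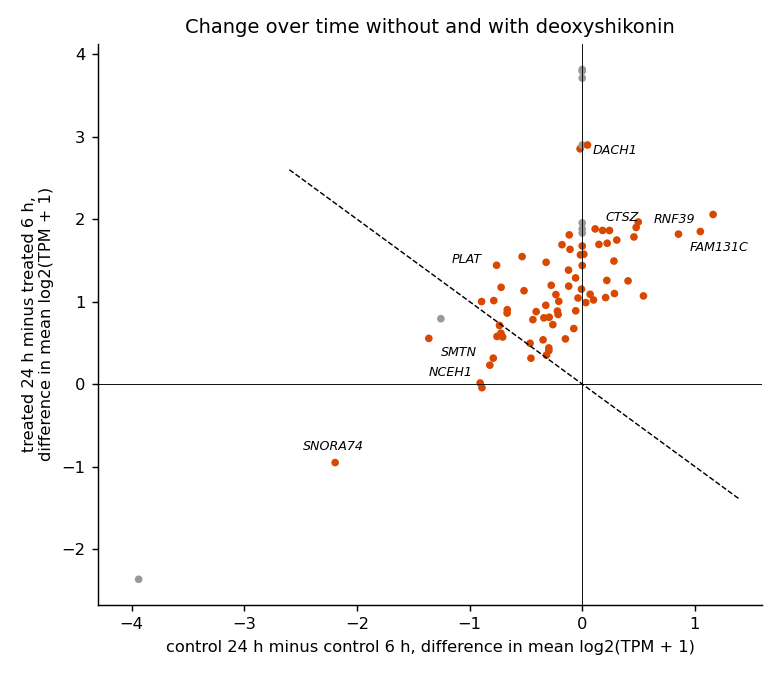
Difference in mean log2(TPM + 1) from 6 h to 24 h in controls (horizontal axis) and in treated cells (vertical axis) for the 83 members; grey points are the 9 members listed at 0 in some library and reaching 20 TPM elsewhere. Points left of the dashed line, where both changes are equal in size and opposite in sign, are the 13 members whose downward control difference exceeded their upward treated one.

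The 5 most abundant members were loci without a symbol. ENSSSCG00000041875 was the highest, with 1445.17, 1235.47 and 2644.66 TPM in controls, against 6338.69, 5457.37 and 7287.05 TPM in treated cells at 24 h. In the 6 h libraries the values were 4317.10, 2942.63 and 2384.95 TPM in controls, against 2649.45, 2940.92 and 4033.86 TPM in treated cells. The groups overlapped fully at 6 h and were apart at 24 h, with the third control library nearest to the treated ones.

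These 5 members shared large swings between some libraries but did not move alike throughout. From the second to the third treated library at 24 h ENSSSCG00000041875 went from 5457.37 to 7287.05 TPM, and ENSSSCG00000041596 and ENSSSCG00000044834 also rose. Between the same libraries ENSSSCG00000047299 fell from 3187.09 to 2537.00 TPM and ENSSSCG00000043761 from 1505.56 to 1163.97 TPM. The third control library at 24 h was 1.85 to 2.14 times the mean of the other 2 controls in all of them. Of the 1233 tested genes averaging 100 TPM or more, 10 (0.811%) had that library at 1.5 times or more above both other controls. Those 10 include all 5 loci and ENSSSCG00000023048, a member with 61.13, 33.34 and 116.75 TPM in controls at 24 h, against 315.76, 210.16 and 188.27 TPM in treated libraries. The first control library at 6 h was 1.43 to 1.62 times the mean of the other 2.

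ENSSSCG00000041596 was at 0.512 to 0.711 times ENSSSCG00000041875, ENSSSCG00000044834 at 0.362 to 0.569 times, ENSSSCG00000047299 at 0.348 to 0.697 times and ENSSSCG00000043761 at 0.160 to 0.315 times. Together the 5 held 1.59% to 1.83% of all TPM in treated cells at 24 h. In the 24 h controls they held 0.438%, 0.379% and 0.812%, and in the 6 h libraries 0.726% or more, below every treated 24 h library. Without the third control library the 24 h differences of the 5 were 1.82 to 2.24, in place of 1.52 to 1.91. Whether the deposited values of these loci come from separate transcripts or from shared reads was not tested.

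**Figure D4:**
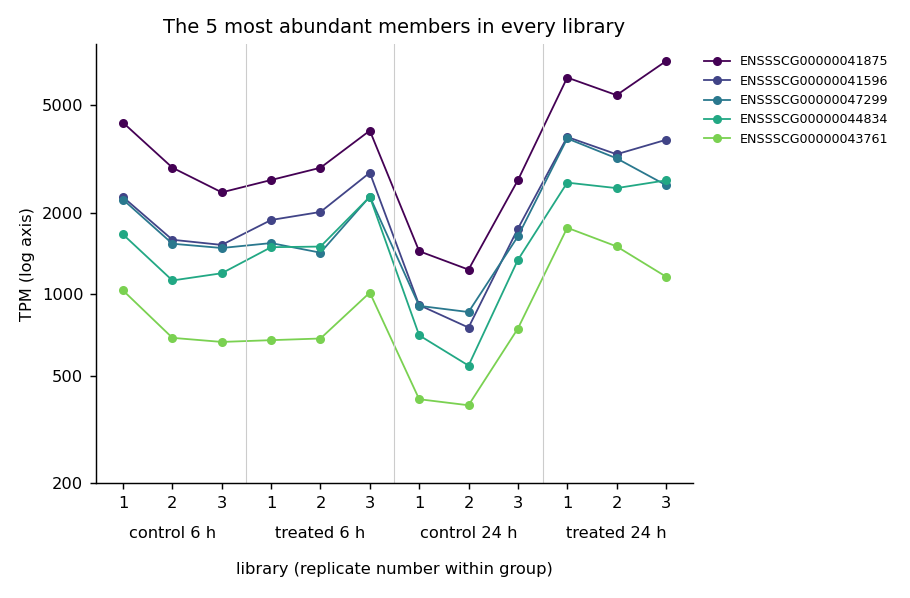
TPM (log axis) of the 5 most abundant members in each of the 12 libraries, by group and replicate number. The 5 lines are alike in shape in the 24 h controls, where all are high in the third library (1.85 to 2.14 times the mean of the other 2). All are above their controls in the treated 24 h libraries. There the lines part, as ENSSSCG00000047299 and ENSSSCG00000043761 fall from the second library to the third and the others rise.

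The 3 largest 24 h differences, 3.71 to 3.82, belonged to loci listed at 0 in most libraries. A value of 0 in some library together with 20 TPM or above elsewhere was seen in 9 members (10.8%) and in 0.941% of all tested genes. It was seen in 12 of the 46 genes (26.1%) that were lower by at least 1 at 24 h and within 0.5 at 6 h. Listed at 0 in all 9 libraries other than treated 24 h were 8 members, and each was above 0 in only 1 or 2 of the treated 24 h libraries, 4 members each way. ENSSSCG00000024742 had 54.72, 0 and 49.10 TPM in treated cells at 24 h, ENSSSCG00000037470 had 52.75, 48.79 and 0 TPM, and ENSSSCG00000031240 had 20.35, 18.43 and 0 TPM. SNORA21 (ENSSSCG00000030374), a small nucleolar RNA that guides pseudouridylation, had 49.07, 0 and 43.86 TPM. Each of these 4 passed the limma test although its groups overlapped at 0.

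ENSSSCG00000040136, ENSSSCG00000031253, ENSSSCG00000020372 and ENSSSCG00000019821 were above 0 in a single library, at 57.31, 49.10, 44.11 and 18.88 TPM. In the third treated library ENSSSCG00000024742 and ENSSSCG00000031253 had the same value, 49.10 TPM. ENSSSCG00000018172 swung in every group but the 24 h controls, which were at 0, with 61.41, 56.72 and 0 TPM in 6 h controls and 0, 0 and 64.58 TPM in treated cells at 24 h. SNORA74, another small nucleolar RNA, had 6.10 to 11.43 TPM in 2 control and 2 treated libraries at 6 h. At 24 h it had 7.02 TPM in 1 treated library and was listed at 0 in the other 5 libraries. SCARNA12, a small Cajal body RNA, was steadier, with 13.21, 18.41 and 4.64 TPM in controls, against 28.97, 30.19 and 31.83 TPM in treated libraries at 24 h. No fold change is given for loci whose controls are listed at 0.

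A total of 21 members without a symbol belonged neither to the abundant nor to the mostly empty loci, with mean levels of 1.04 to 175 TPM and 24 h differences of 1.00 to 3.23. Of these, 20 did not overlap at 24 h, the contrast of the rule, against 35.4% of all tested genes with treated cells higher. ENSSSCG00000042659 had the largest difference, with 0, 0.19 and 0 TPM in controls, against 11.09, 8.74 and 7.39 TPM in treated libraries. ENSSSCG00000032330 had 143.44, 130.49 and 128.02 TPM in controls, against 302.23, 332.04 and 352.04 TPM in treated libraries. ENSSSCG00000048311 had 99.09, 96.50 and 111.64 TPM in controls, against 196.11, 267.24 and 228.24 TPM in treated libraries. ENSSSCG00000039927 was listed at 0 in all controls at both times and had 6.53, 1.18 and 3.50 TPM in treated libraries at 24 h.

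To see how far the pattern repeated between these libraries, the rule was applied to 2 of the 3 replicate numbers. The genes it found were read in the third. Libraries of a group may share a culture, so the left-out libraries may not be independent of those that chose the genes. Each left-out difference set a treated library against the control of the same number, a pairing the labels do not give. The counts of genes are a description. Leaving out number 1 gave 95 genes, of which 40 (42.1%) had a 24 h difference of at least 1 between the left-out libraries, as had 2.60% of all tested genes. Leaving out number 2 gave 80 genes, and 49 of them (61.3%) reached 1, against 3.07% of all. Leaving out number 3 gave 68 genes, and 45 (66.2%) reached 1, against 3.83% of all.

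The median 24 h difference in the left-out libraries was 0.905, 1.16 and 1.26, below the 1.34, 1.46 and 1.38 found in the libraries that chose the genes. At 6 h, 60.0%, 67.5% and 57.4% of the found genes lay within 0.5 of the control in the left-out libraries, where 52.3%, 48.8% and 54.4% of all tested genes did. Both conditions together held in the left-out libraries for 22 of 95, 33 of 80 and 28 of 68 genes, and for 0.699%, 0.984% and 1.13% of all tested genes. A 24 h difference above 0 was seen in 80 of 95, 68 of 80 and 59 of 68 of these genes in the left-out libraries, where 53%, 60.1% and 65.0% of all tested genes had one.

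**Figure D5:**
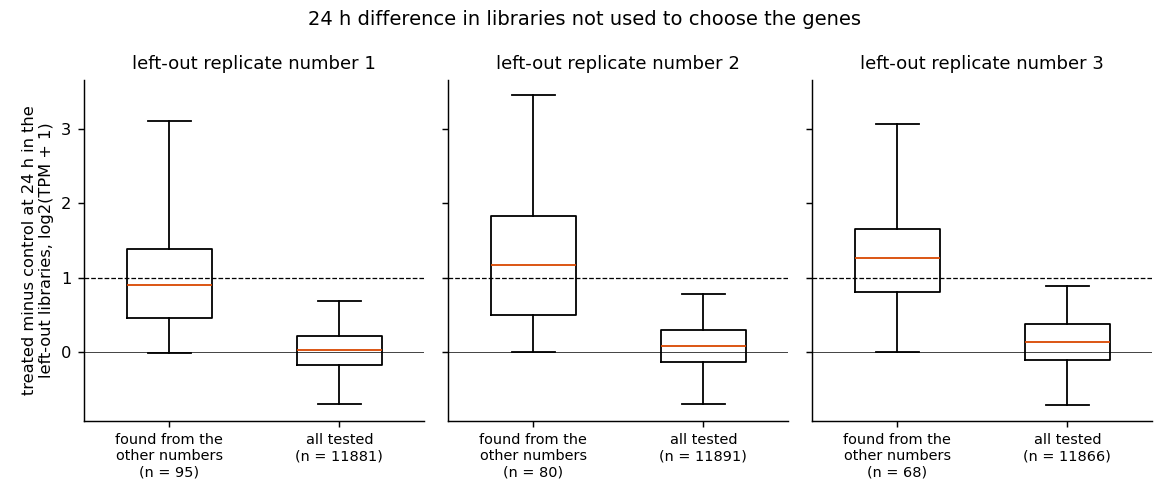
Treated minus control at 24 h on the log2(TPM + 1) scale in the libraries of the left-out replicate number, for the genes the rule found from the other numbers and for all tested genes; boxes show the median and quartiles, whiskers the 5th and 95th percentiles. The medians of the found genes are 0.905, 1.16 and 1.26, close to the dashed line at 1.

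Among the 283 Ensembl genes with a 24 h difference of at least 1, the members were the second largest class. A 6 h difference of at least 1 was seen in 144 genes, one above 0.5 and under 1 in 39, and one under -0.5 in 17. The median 24 h difference was 1.35 in the members, 1.53 in the genes higher at both times and 1.35 in the intermediate class. The median residual SD on the log2 scale was 0.297 in the members, 0.164 in the genes higher at both times, 0.171 in the intermediate class, 0.611 in the class under -0.5 at 6 h and 0.093 in all tested Ensembl genes. A symbol was paired with 57.8% of the members, and with 77.8%, 61.5% and 41.2% of those other classes in the same order, against 85.7% of all tested Ensembl genes. Low symbol shares and wide spreads were thus not particular to the members. Genes lower by at least 1 at 24 h and within 0.5 at 6 h numbered 46. No test was made between these classes, which the same values define.

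Of the 48 member symbols, 44 were found among the protein-coding genes of the RefSeq annotation of Sscrofa11.1, on 16 chromosomes. SMTN and SELENOM were next neighbours in that annotation and the only such pair among them, and the 35 members without a symbol were not placed. The build behind the deposited values is not given in the sources used here, so no coordinates or sequences are printed.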

How the data were processed

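The authors deposited 1 table of TPM per gene and library, with replicates not pooled and each column scaled to 1 common total. The submitters' processing notes name fastp, HISAT and RSEM; versions, genome build and annotation are not given in the sources used here. Symbols came from a table of Ensembl identifiers, which matched 15029 of 32518. Values were analysed as log2(TPM + 1), on which a difference understates the change of low genes. The 11897 genes averaging 1 TPM or more, assembled loci included, were tested with limma 3.58.1 in R 4.3.3 (1 fit of all 4 groups, 8 residual degrees of freedom, eBayes with trend, Benjamini-Hochberg, threshold 0.05), after a test on simulated data. The members and lists were chosen with earlier results of these data known. The lists numbered 11 and held 174 tested genes, of which 2 were members, and not all lists are reported here. Genes named are the 10 with the largest 24 h difference, the 10 highest in treated cells at 24 h, the 3 largest control rises and falls, the 3 nearest each side of the limit, and members on fixed lists (32 in all, some not reported here). Other genes named were chosen after their values were seen. Alternatives were another pseudocount, other filters, limits and scalings, the replicate block, no trend, and each library left out.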

Additional observations from a re-analysis of the deposited data

Results flagged for a closer look

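The effect of treatment differed between 6 h and 24 h by the interaction test in 54 of the 83 members (limma adjusted p under 0.05), against 45% of all tested genes with an interaction in that direction. The rule fixes the sign of this difference, so the count is a description.

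Assembled loci, whose identifiers the rule does not admit, showed the same pattern at 15 of 531 tested loci. The members were 83 of 11366 Ensembl genes. Of the 15 loci, 9 did not overlap between the groups at 24 h with treated cells higher, against 35.4% of all tested genes. The same 24 h contrast chose these loci, so nothing is read from that count. MSTRG.15881 had 15.7, 11.7 and 29.1 TPM in controls, against 64.8, 79.1 and 97.9 TPM in treated cells at 24 h.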

How the results depend on the processing

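The rule found 43 members with a minimum mean TPM of 5, 34 with a 24 h limit of 1.5, 44 with a 6 h window of 0.25, and 51 (48 of them shared) with differences taken from the median of all tested genes. With that TPM minimum, 38 of the 43 were called at 24 h, 8 at 6 h, 32 between treated times and 31 for the interaction, since fewer genes were tested. Shares over all tested genes are not given for this minimum or for libraries left out, so nothing is read from those counts. Median-of-ratios rescaling found 64 genes, 61 of them shared with the 83. Leaving out libraries gave 68 to 95 members by the rule. Of the 83, 58 to 71 were then called at 24 h, 15 to 19 at 6 h and 50 to 62 between treated times. Calls between control times numbered 17 to 28 and those for the interaction 50 to 55, and 64 to 69 did not overlap at 24 h. Without the 9 members at 0 and at 20 TPM or more, an alternative chosen after seeing the data, 74 remained, with 63 called at 24 h, 19 at 6 h and 67 not overlapping. Over all tested genes 32.2% rose at 24 h, and 26.6% rose and 48.7% fell at 6 h. At 24 h 35.4% did not overlap with treated cells higher. In all 17 settings of pseudocount, filter, scaling and single libraries left out, 23 of the 83 members were kept. Being kept does not mean a steady gap. The 23 include ENSSSCG00000024742, ENSSSCG00000037470 and SNORA21, whose groups overlapped at 0 at 24 h. Of 803 differences recomputed for 49 named members, 0 were below 0 and 40 below 1; SNORA74 and ENSSSCG00000018172 fell to 0 without the library that placed them.

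The labels do not say that replicate numbers pair the libraries, and they were not taken to: deviations of same-numbered libraries correlated at -0.117 to 0.109 across genes, 1 of 18 pairs above 0.1. A library was nevertheless closest to its own number, of 3, in 22 of 36 comparisons, a hint from the data and not from the design. With the replicate block 70 of the 83 members were called at 24 h, 18 at 6 h and 60 between treated times. Between control times 25 were called, and 56 for the interaction. Shares over all tested genes with the block are not given here. TPM keeps no depth, so what depth limits cannot be given.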
